A study of Homo sapiens with 6 samples.

Results

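Platelets hold on to damaged vessel walls and to one another through a small set of surface receptors, and 9 genes for such receptors are described here in K562 cells with and without ARID4B. They are ITGA2B and ITGB3, which encode the alpha IIb and beta 3 chains of the fibrinogen receptor. GP1BA, GP1BB, GP5 and GP9 encode the chains of the glycoprotein Ib-IX-V complex, which binds von Willebrand factor. GP6 encodes a collagen receptor, CD36 a scavenger receptor for thrombospondin and fatty acids, and PEAR1 a receptor that signals at contacts between platelets. The genes were taken from the count table by symbol, and the list of symbols was drawn up with earlier results of these data known. Of the 9 symbols, 8 had a row of their own among 34495 rows of the count table, and GP1BB did not. Of these 8, 6 passed the expression filter and were among 13696 genes tested, and GP5 and GP9 fell below it.

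The title of the study names ARID4B together with inhibition of KIT-Src signalling in differentiating blood progenitors. ARID4B encodes a subunit of the SIN3-HDAC corepressor complex. The tested libraries were 3 labelled as ARID4B knockout and the libraries they were set against were 3 labelled as wild type. Titles, cell line labels and protocols name K562, an established erythroleukemia line, for all libraries, while the source names of the knockout libraries read K565. All were grown, per the labels, in the same serum-containing medium with no further treatment named. How the knockout was made, and whether it is 1 clone or several, is not stated in any source used here. Nothing in the labels says that replicates were separate cultures, so the p-values speak only of the spread among these libraries, and that spread may be technical.

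Integrins work as pairs of an alpha and a beta chain, and alpha IIb reaches the surface only when paired with beta 3. The beta 3 chain also pairs with alpha V, a combination found on many cell types. Beta 3 integrins on platelets rest in an inactive shape until signals from inside the cell, passed on by talin and kindlin, open them. GPVI signals through the FcR gamma chain, and the Ib-IX-V complex needs several of its chains together for stable display. Alpha IIb appears early in the megakaryocyte lineage and the Ib-IX-V chains later, and K562 cells have long been used as a line with both erythroid and megakaryocytic features.

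Sequences upstream of 4 of the genes are printed because the genes behaved differently: ITGA2B and GP6 rose in the knockout, PEAR1 overlapped between genotypes and GP9 was nearly silent. Each is 300 bases, from 250 before to 50 after the annotated start, written 5′ to 3′ on the strand of the gene, from RefSeq on GRCh38.p14. Windows were found for 7 of the 9 genes, ITGB3 and GP1BA not among them, and CD36 had 6 windows from its several starts. Capitals mark matches, on either strand, to AGATAA or TGATAA (bound by GATA factors), CGGAAG or AGGAAG (bound by ETS factors) and TGTGGT (bound by RUNX factors). The 4 windows lie at chr17:44389600-44389899 (minus strand) for ITGA2B, chr19:55038215-55038514 (minus strand) for GP6, chr1:156893468-156893767 (plus strand) for PEAR1 and chr3:129060529-129060828 (plus strand) for GP9.
ITGA2B: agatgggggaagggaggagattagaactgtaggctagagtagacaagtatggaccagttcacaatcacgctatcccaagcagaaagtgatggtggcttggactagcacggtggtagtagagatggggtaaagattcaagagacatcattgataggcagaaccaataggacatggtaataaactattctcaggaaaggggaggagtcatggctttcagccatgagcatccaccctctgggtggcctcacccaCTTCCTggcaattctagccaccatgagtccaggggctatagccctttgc
GP6: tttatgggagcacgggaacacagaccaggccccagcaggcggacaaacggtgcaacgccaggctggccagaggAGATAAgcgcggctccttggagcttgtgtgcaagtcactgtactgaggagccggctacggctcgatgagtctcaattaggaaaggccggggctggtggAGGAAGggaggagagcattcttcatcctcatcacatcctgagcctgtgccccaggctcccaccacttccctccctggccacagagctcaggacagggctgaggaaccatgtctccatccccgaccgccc
PEAR1: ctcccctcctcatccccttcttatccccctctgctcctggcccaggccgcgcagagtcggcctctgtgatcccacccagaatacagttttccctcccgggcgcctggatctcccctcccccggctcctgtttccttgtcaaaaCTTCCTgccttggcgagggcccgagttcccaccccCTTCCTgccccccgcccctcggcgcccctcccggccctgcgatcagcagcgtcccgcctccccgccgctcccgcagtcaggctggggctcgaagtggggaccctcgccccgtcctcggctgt
GP9: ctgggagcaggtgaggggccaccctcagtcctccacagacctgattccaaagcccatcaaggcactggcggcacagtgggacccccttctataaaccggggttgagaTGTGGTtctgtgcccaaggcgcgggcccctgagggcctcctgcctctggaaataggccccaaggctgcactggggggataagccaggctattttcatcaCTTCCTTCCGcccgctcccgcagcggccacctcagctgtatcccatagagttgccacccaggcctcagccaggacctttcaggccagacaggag

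The ITGA2B window held 1 ETS match, CTTCCT on the opposite strand at position 2 from the start, and no match to the GATA or RUNX letters. The GP6 window held AGATAA at position -177 and AGGAAG at position -79. The PEAR1 window held CTTCCT at positions -107 and -72. In the GP9 window the ETS matches CTTCCT at -44 and CTTCCG at -40 overlapped, and TGTGGT stood at -143. Among 35116 windows of the same length, AGATAA was present in 10.3%, TGATAA in 7.53%, CGGAAG in 19.5%, AGGAAG in 33.6% and TGTGGT in 13.1%. At least 1 of the ETS words was present in 46.9% of windows, and at least 1 of the GATA words in 16.3%. A match is a run of letters and does not show binding, and the data hold no measurement of binding.

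Library totals were between 21701404 and 24287385 estimated counts in the knockout and between 23959811 and 30346244 in wild type. ARID4B itself had 8.52, 7.22 and 7.68 CPM (estimated counts divided by the TMM-adjusted library total) in knockout replicates 1 to 3, against 38.4, 41.0 and 40.9 CPM in wild-type replicates 1 to 3. This was a log2 fold change of -2.36 (SE 0.10, edgeR quasi-likelihood adjusted p = 0.000132), and gene totals do not say which exons were still transcribed. The knockout libraries differed far more among themselves, with a biological coefficient of variation of 32.3%, than the wild-type libraries, with 4.79%. Of all tested genes 4619 (33.7%) had an adjusted p under 0.05, 2512 of them higher in the knockout (18.3%) and 2107 lower (15.4%). Those counts were 1156 to 1243 and 941 to 1106 when wild-type replicate 1, 2 or 3 was left out. With library totals alone they were 3120 and 1283, so that 70.9% of the calls were higher in the knockout in place of 54.4%. All erythroid markers listed were detected and tested, with summed levels of 17739 to 32763 CPM in the knockout and 18434 to 20091 CPM in wild type.

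Both chains of the fibrinogen receptor rose in the knockout, and so did the collagen receptor GP6. These were 3 of the 6 tested receptor genes, where 33.7% of all tested genes passed the threshold and 18.3% passed it upward. No tested receptor gene fell with all libraries in the fit. For the same 3 genes all knockout libraries exceeded all wild-type libraries, as for 26.6% of all tested genes. At least 2-fold rises past the threshold, which these 3 also were, made up 11.4% of all tested genes. In bulk samples a larger share of cells with a transcript and more transcript per cell cannot be told apart.

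**Figure D1:**
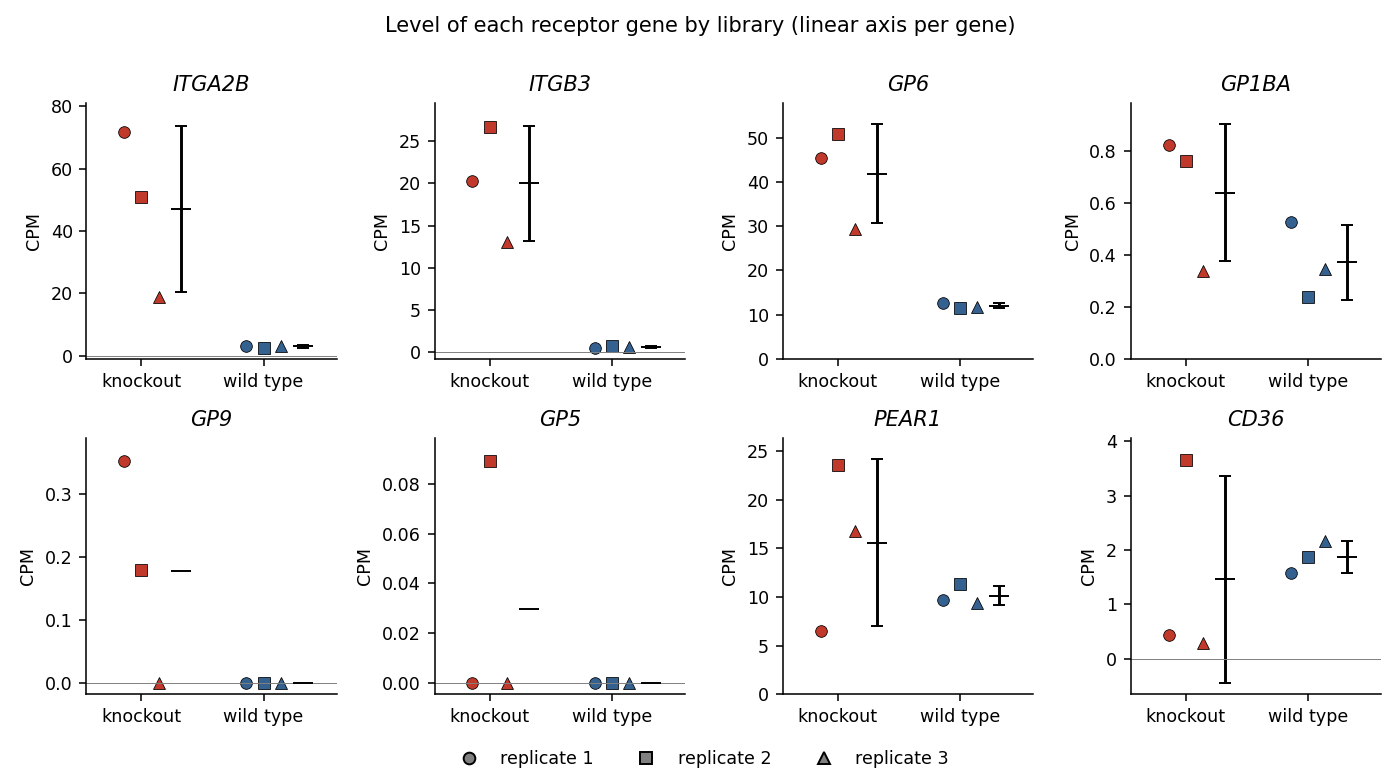
Level of 8 receptor genes in CPM (linear axis, own scale per gene) in each knockout library (left, red) and wild-type library (right, blue), marker shapes for replicate numbers, with the mean and, except for GP9 and GP5, the SD (n = 3 per genotype). ITGA2B, ITGB3 and GP6 separate the genotypes completely, while GP1BA, PEAR1 and CD36 overlap and GP9 and GP5 have no wild-type count.

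ITGA2B (chromosome 17, 42449550 to 42466873 on hg19) had 71.7, 50.8 and 18.8 CPM in knockout replicates 1 to 3, against 3.30, 2.56 and 3.16 CPM in wild-type replicates 1 to 3. All knockout libraries were high, but knockout replicate 3 stood well below the other knockout libraries. Means were 47.1 ± 26.6 CPM in the knockout and 3.01 ± 0.393 CPM in wild type (SD, n = 3 each). The knockout was 3.97 higher on the log2 scale (SE 0.50, edgeR quasi-likelihood adjusted p = 0.00272), a 15.7-fold difference. The estimated counts behind these levels were 1834, 1139 and 449 in the knockout and 88, 75 and 73 in wild type, so counting error was small beside the spread between knockout libraries. Ordered from the highest log2 fold change down, ITGA2B was number 299 of the 13696 tested genes.

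ITGB3 (chromosome 17, 45331208 to 45421658 on hg19) was lower than its partner and had the larger fold change in the fit. The ratio of the chains within each library, given below, overlapped between genotypes. It had 20.3, 26.7 and 13.1 CPM in knockout replicates 1 to 3, against 0.563, 0.820 and 0.649 CPM in wild-type replicates 1 to 3. The wild-type libraries were near the lower limit of what was tested, at 15, 24 and 15 counts, and knockout replicate 3 was again the lowest of the knockout libraries. Mean levels were 20.02 ± 6.79 CPM in the knockout and 0.677 ± 0.131 CPM in wild type (SD, n = 3 each). Its log2 fold change of 4.87 (SE 0.34, edgeR quasi-likelihood adjusted p = 0.000536) was a 29.2-fold rise and number 175 of all tested genes. EFCAB13, which overlaps ITGB3 by 20517 bases on hg19, had 0.899, 1.25 and 0.755 CPM in the knockout and 0.638, 0.547 and 0.216 CPM in wild type (adjusted p = 0.127). Its level was a small part of that of ITGB3 in the knockout. In wild type, however, it averaged 0.467 CPM against 0.677 CPM for ITGB3. Both genes lie on the plus strand. Their estimated counts were whole numbers in wild type, with 17, 16 and 5 for EFCAB13. In the knockout they held fractions, which a shared read can leave, at 518.82, 598.19 and 312.18 for ITGB3 and 23.18, 27.81 and 17.82 for EFCAB13. Beyond this, how the counting shared reads between them was not tested.

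The balance of the chains was read per kilobase of transcript, which allows levels of different genes to be set side by side. ITGA2B averaged 14.1 ± 7.98 CPM per kilobase in the knockout and 0.903 ± 0.118 in wild type. ITGB3 averaged 5.01 ± 1.70 and 0.170 ± 0.0327 CPM per kilobase in knockout and wild type (SD, n = 3 each). The alpha IIb transcript thus exceeded the beta 3 transcript in every library, by a ratio of 4.24, 2.28 and 1.72 in knockout replicates 1 to 3, against 7.03, 3.75 and 5.83 in wild-type replicates 1 to 3. The difference of the log2 ratios was -1.07, and knockout replicate 1 fell within the wild-type range (exact two-sided permutation p = 0.2, adjusted over 2 ratios 0.2). ITGAV, the other alpha partner of beta 3, had 60.8, 53.2 and 33.8 CPM in the knockout and 23.1, 29.6 and 28.0 CPM in wild type, a log2 fold change of 0.87 (SE 0.22, edgeR quasi-likelihood adjusted p = 0.0233). ITGAV missed the threshold without any 1 wild-type library (adjusted p 0.0673 to 0.0970) and without knockout replicate 2 (0.0564). Per kilobase, ITGAV stood 1.71, 1.13 and 1.47 times above ITGB3 in the knockout, against 23.3, 20.5 and 24.5 times in wild type. The groups did not overlap, and the log2 difference was -4.01. The exact two-sided permutation p was 0.1, the smallest that 3 against 3 libraries allow, and 0.2 after adjustment over the 2 ratios.

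GP6 (chromosome 19, 55525075 to 55549632 on hg19) was the receptor gene with the highest wild-type level per kilobase. It had 45.4, 50.8 and 29.4 CPM in knockout replicates 1 to 3, against 12.7, 11.6 and 11.8 CPM in wild-type replicates 1 to 3. The wild-type libraries were close together and the lowest knockout library was again replicate 3. The means were 41.9 ± 11.1 CPM in the knockout and 12.03 ± 0.583 CPM in wild type (SD, n = 3 each), with a log2 fold change of 1.80 (SE 0.20, edgeR quasi-likelihood adjusted p = 0.00211), or 3.48-fold. The partner that carries its signal, FCER1G, the FcR gamma chain, was not tested, with 0.508, 0.223 and 0 CPM in the knockout and 0.0375, 0.0683 and 0.0433 CPM in wild type.

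The GP6 counts carry a limit of annotation. On hg19, the span of GP6 overlaps that of RDH13, a retinol dehydrogenase gene on the same (minus) strand, by 10687 bases. Strand alone does not separate reads from that stretch, and whether exons of the genes overlap was not examined. RDH13 had 45.1, 57.9 and 30.35 CPM in the knockout and 55.6, 54.9 and 51.0 CPM in wild type (log2 fold change -0.28, adjusted p = 0.359). RDH13 did not pass the threshold, and its genotypes overlapped. The ratio of GP6 to RDH13 counts, a calculation chosen after the values were seen and given without a test, was 1.01, 0.878 and 0.970 in knockout replicates 1 to 3, against 0.228, 0.211 and 0.232 in wild-type replicates 1 to 3. The ratio was thus nearly constant within each genotype while both levels differed between knockout libraries. Estimated counts of both genes were whole numbers in every library except knockout replicate 2, with 1140.16 for GP6 and 1298.84 for RDH13. Fractions, which a read shared between genes can leave, thus appeared in that library only. Beyond this, how the counting shared reads between these genes was not tested.

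**Figure D2:**
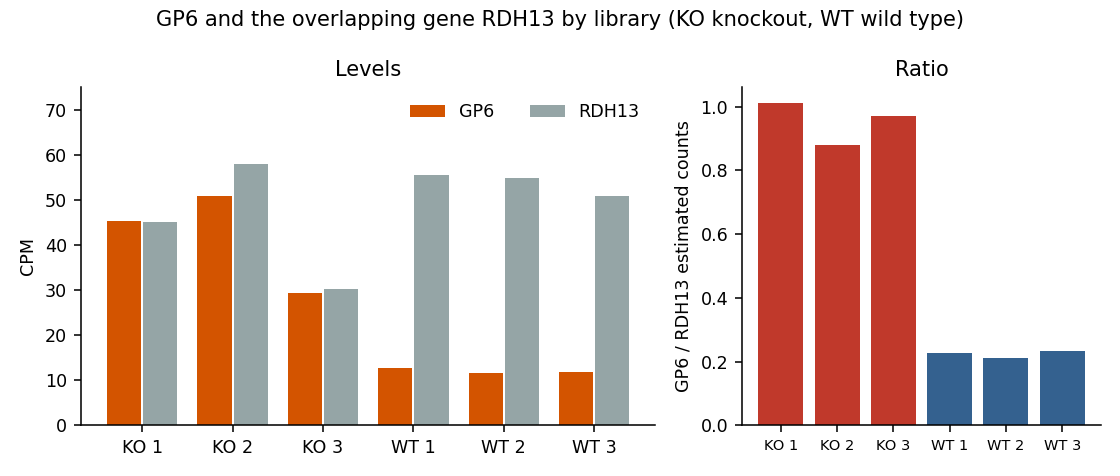
Levels of GP6 and the overlapping gene RDH13 in CPM (left) and the ratio of their estimated counts (right, no unit), with 1 bar per library, knockout (KO) before wild type (WT). GP6 bars are taller in the knockout and RDH13 bars are not, and the ratio is 0.878 to 1.01 in the knockout and 0.211 to 0.232 in wild type.

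No measured chain of the glycoprotein Ib-IX-V complex passed the test, and all were low in both genotypes. GP1BA (chromosome 17, 4835592 to 4838325 on hg19), the chain that binds von Willebrand factor, had 0.821, 0.758 and 0.336 CPM in knockout replicates 1 to 3, against 0.526, 0.239 and 0.346 CPM in wild-type replicates 1 to 3. The libraries of the genotypes overlapped and rested on 8 to 21 counts in the knockout and 7 to 14 in wild type. A log2 fold change of 0.78 was found (SE 0.50, edgeR quasi-likelihood adjusted p = 0.262).

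GP9 (chromosome 3, 128779645 to 128781253 on hg19), the glycoprotein IX chain, had 9, 4 and 0 counts in knockout replicates 1 to 3 and 0 counts in each wild-type library. Taking 3 counts over the wild-type group as a floor, the 13 knockout counts as they stand gave a bound of 4.77-fold higher. This bound allows for counting error in wild type but not in the knockout counts. Of the 13 knockout counts 9 came from knockout replicate 1, without which the bound was 2.28-fold on 4 counts. Knockout replicate 3 looked like wild type. Tested without the expression filter, GP9 gave an adjusted p of 0.115. GP5 (chromosome 3, 194115550 to 194119995 on hg19), the glycoprotein V chain, had 0, 2 and 0 counts in the knockout and none in wild type, which is under the floor and allows no fold (adjusted p = 0.386 without the filter). A count of 0 over the wild-type group allows a level of up to 0.0380 CPM for either gene.

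GP1BB was present only in a joint row with its neighbour SEPT5, so its level was not measured. That row, which reads through both genes, had 554.9, 655.0 and 379.8 CPM in the knockout and 451.7, 413.1 and 406.6 CPM in wild type, with overlapping libraries (log2 fold change 0.32, SE 0.18, adjusted p = 0.219). It passed the threshold only without knockout replicate 3 (0.50, adjusted p = 0.0103). No value of GP1BB is drawn from it.

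PEAR1 and CD36 differed among the knockout libraries more than between genotypes. PEAR1 (chromosome 1, 156863523 to 156886226 on hg19) had 6.45, 23.5 and 16.8 CPM in knockout replicates 1 to 3, against 9.72, 11.3 and 9.43 CPM in wild-type replicates 1 to 3. Knockout replicate 1 lay below wild type and the other knockout libraries above it. The means were 15.6 ± 8.62 CPM in the knockout and 10.2 ± 1.01 CPM in wild type (SD, n = 3 each), with a log2 fold change of 0.62 (SE 0.42, edgeR quasi-likelihood adjusted p = 0.295). Without knockout replicate 1 the log2 fold change was 0.99 and passed the threshold (adjusted p = 0.00665).

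CD36 (chromosome 7, 79998891 to 80308593 on hg19) had 0.430, 3.66 and 0.294 CPM in knockout replicates 1 to 3, against 1.58, 1.88 and 2.16 CPM in wild-type replicates 1 to 3. Here knockout replicate 2 was the high library, and the other knockout libraries lay below wild type. The levels averaged 1.46 ± 1.90 CPM in the knockout and 1.87 ± 0.293 CPM in wild type (SD, n = 3 each), with a log2 fold change of -0.37 (SE 0.88, edgeR quasi-likelihood adjusted p = 0.778). Without knockout replicate 2 it was -2.36 and past the threshold (adjusted p = 0.00774), and without knockout replicate 1 or 3 it was 0.07 or 0.11. The direction of CD36 therefore depended on which knockout library was left out.

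Per kilobase, knockout levels ran from GP6 at 18.5 ± 4.91 and ITGA2B at 14.1 ± 7.98 through ITGB3 at 5.01 ± 1.70 and PEAR1 at 3.21 ± 1.77 to CD36 at 0.635 ± 0.828, GP1BA at 0.255 ± 0.105, GP9 at 0.199 ± 0.198 and GP5 at 0.00841 ± 0.0146 CPM per kilobase. The wild-type order was GP6 at 5.30 ± 0.257, PEAR1 at 2.09 ± 0.208, ITGA2B at 0.903 ± 0.118, CD36 at 0.815 ± 0.128, ITGB3 at 0.170 ± 0.0327 and GP1BA at 0.148 ± 0.0579 CPM per kilobase, with GP9 and GP5 at 0. In the knockout, the ranges of mean ± SD overlapped for every pair of neighbours in that order, so it is an order of means only. In wild type the ranges of ITGA2B and CD36 overlapped, as did those of ITGB3 and GP1BA, and the other neighbours were separated.

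The knockout libraries did not rank the receptors alike. ITGA2B was highest in knockout replicate 1, 3.80 times the lowest library, a range wider than that of 95.6% of tested genes. ITGB3 and GP6 were highest in knockout replicate 2 and spread less, 2.04 and 1.73 times (85.3% and 77.6% of tested genes had a narrower range). PEAR1 spread 3.65 times with replicate 1 the lowest, and CD36 12.5 times, wider than 97.5% of tested genes. Knockout replicate 3 was the lowest library for ITGA2B, ITGB3, GP6, GP1BA and CD36, and GP9 was not detected in it, but for PEAR1 it lay between the other knockout libraries. Its ARID4B level of 7.68 CPM lay between those of the other knockout libraries, at 8.52 and 7.22 CPM.

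The genes most like ITGA2B over the 6 libraries were found by the Euclidean distance between centred log2(CPM + 0.5) profiles among 10533 tested genes with at least 5 CPM in either genotype. They were RAB27B at 0.476, PTPRF at 0.583, TSPAN9 at 0.587, SYNE1 at 0.659 and AKAP13 at 0.692. ITGB3 stood at 1.2 from ITGA2B and GP6 at 2.45. RAB27B, a small GTPase of granule secretion, had 48.8, 36.4 and 17.0 CPM in the knockout and 2.52, 2.26 and 3.16 CPM in wild type. TSPAN9, a tetraspanin of megakaryocytes and platelets, had 25.2, 13.96 and 9.02 CPM in the knockout and 0.901, 0.513 and 0.822 CPM in wild type. PTPRF, a receptor tyrosine phosphatase, SYNE1, a giant protein of the nuclear envelope, and AKAP13, a kinase anchor, were likewise highest in knockout replicate 1 and lowest in replicate 3 among knockout libraries. These genes were selected for this likeness, which is a description over 6 libraries.

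**Figure D3:**
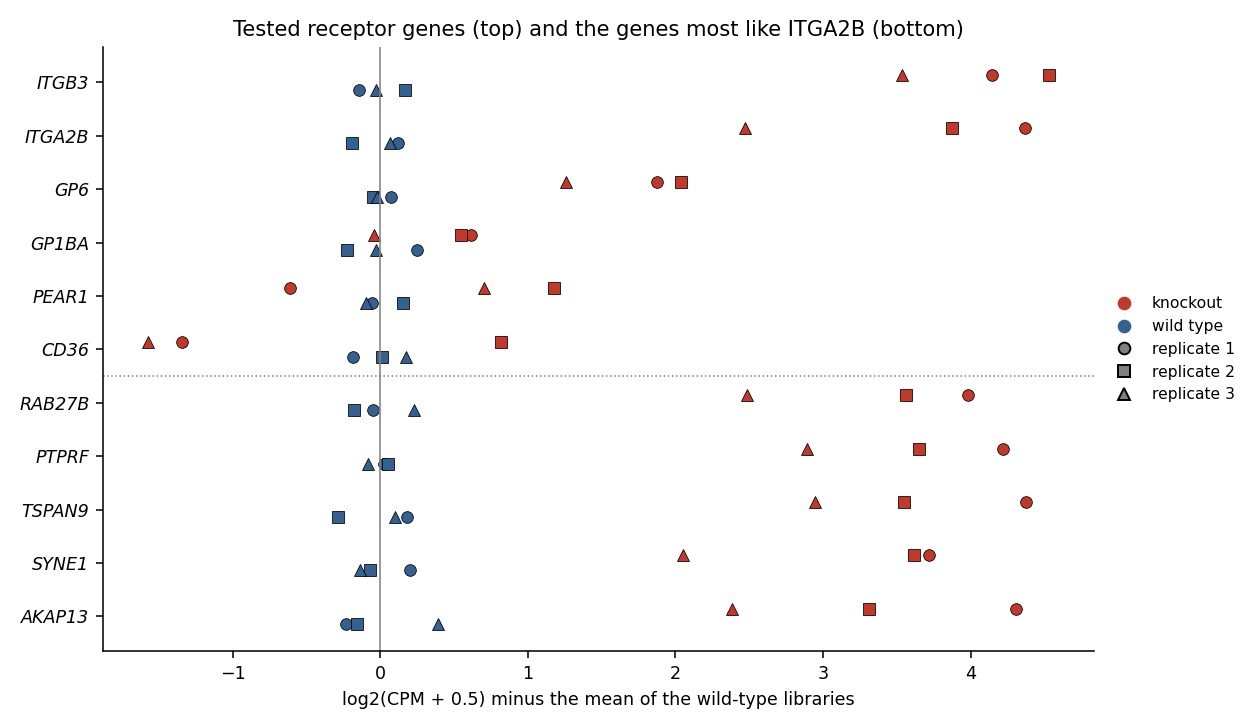
Each library's log2(CPM + 0.5) minus the mean of the wild-type libraries, for the 6 tested receptor genes (above the dotted line) and the 5 genes most like ITGA2B (below it), knockout in red above wild type in blue, marker shapes for replicate numbers. ITGB3, ITGA2B and GP6 lie to the right in all knockout libraries, whereas the PEAR1 and CD36 knockout libraries fall on both sides of 0.

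Across every scaling, tool, filter and left-out library tried, ITGA2B, ITGB3 and GP6 stayed past the threshold and higher in the knockout. With 1 library left out, their log2 fold changes ran from 3.53 to 4.34, from 4.60 to 5.09 and from 1.63 to 1.99. GP1BA stayed short of the threshold with log2 fold changes of 0.53 to 1.10. The authors' deposited table, limited to 3153 genes with unadjusted p-values no higher than 0.05 and absolute log2 fold changes from 0.59 up, contained the same 3 of the 9 receptor genes, with log2 fold changes of 4.01 for ITGA2B (adjusted p = 0.0376), 5.00 for ITGB3 (0.00802) and 2.02 for GP6 (0.0204) in that table.

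**Figure D4:**
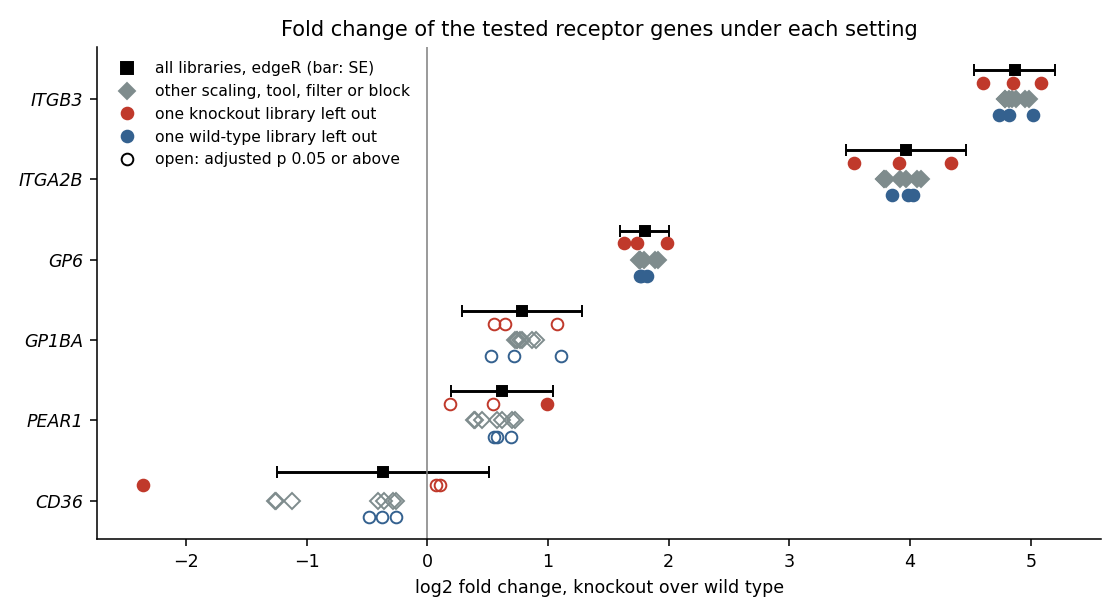
Log2 fold change, knockout over wild type, of the 6 tested receptor genes with all libraries (black squares, bar: SE), under another scaling, tool, filter or block (grey diamonds), and with 1 knockout (red) or 1 wild-type library (blue) left out, open symbols at an adjusted p of 0.05 or above. ITGB3, ITGA2B and GP6 are filled throughout, while CD36 runs from -2.36 to 0.11 and PEAR1 from 0.19 to 0.99.

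Other surface receptors of platelets, named in a list chosen with earlier results of these data known, rose in 11 of 17 tested members and fell in 0. Over all tested genes 18.3% were higher and 15.4% lower. The median of log2 fold changes in the list was 0.95 against 0.02 over all tested genes. The list had 26 genes with a row, and 3 of those tested passed the filter only through the knockout libraries, CD9 and LY6G6F among them. ESAM, an adhesion molecule of platelets and endothelium, had 26.8, 6.33 and 6.59 CPM in the knockout and 0.188, 0.444 and 0.346 CPM in wild type (edgeR quasi-likelihood adjusted p = 0.00380). CD9, a tetraspanin that sits beside alpha IIb beta 3, had 10.4, 4.91 and 1.97 CPM in the knockout and 0.375, 0.239 and 0.173 CPM in wild type (adjusted p = 0.00506). LY6G6F, a small receptor of platelets, had 1.06, 3.17 and 1.76 CPM in the knockout and 0, 0.0683 and 0.303 CPM in wild type (adjusted p = 0.0163, lost without wild-type replicate 1 or 2 at 0.0503 and 0.0899). The ADP receptor P2RY12 and TREML1, singled out after their values were seen, had no count in any library. SELP, the P-selectin gene, chosen in the same way, was not tested and had 8.52, 2.45 and 0.0420 CPM in the knockout against 0.0375, 0 and 0 CPM in wild type.

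Of the other integrin chains, 6 of 11 tested members rose and 0 fell (median 0.87, log2), beside 18.3% higher and 15.4% lower over all tested genes. Of the 11, 2 passed the filter only through the knockout, ITGA9 and ITGA3. ITGA9 and ITGA3, alpha partners of beta 1, had 3.05, 1.07 and 0.839 CPM and 0.977, 0.714 and 1.43 CPM in the knockout, each against 2 counts in all wild-type libraries together (adjusted p = 0.00645 and 0.00563). ITGA7, a laminin receptor chain, had 1.37, 5.40 and 3.02 CPM in the knockout and 1.01, 0.478 and 0.692 CPM in wild type (adjusted p = 0.0257). Its call was lost with limma-voom (0.0608), with the replicate block (0.0790), without any 1 wild-type library (0.0657 to 0.105) and without knockout replicate 2 (0.0539). ITGB1, the common beta chain, was far more abundant than ITGB3 at 66.4 ± 4.52 CPM per kilobase in the knockout and 75.6 ± 2.66 in wild type. It lay lower in every knockout library without passing the threshold (log2 fold change -0.19, adjusted p = 0.0846), but passed with DESeq2 (0.0443) and without knockout replicate 3 (0.0281).

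Ligands of the receptors were measured in the same libraries. In this list 5 of 10 tested members rose and 0 fell (median 1.24, log2), beside 18.3% higher and 15.4% lower over all tested genes. Of the 10, 1 passed the filter only through the knockout, MMRN1. THBS1, a ligand of CD36, had 86.2, 141.1 and 75.2 CPM in the knockout and 1.09, 0.957 and 1.08 CPM in wild type (edgeR quasi-likelihood adjusted p = 0.000180). COL1A1, a collagen chain, collagen being the ligand of GPVI, had 26.4, 28.9 and 7.22 CPM in the knockout and 0.788, 0.171 and 0.606 CPM in wild type (adjusted p = 0.00329). MMRN1, a granule protein that binds platelet receptors, had 3.99, 6.42 and 2.39 CPM in the knockout and 1 count in all wild-type libraries together (adjusted p = 0.00145). VWF, the ligand of glycoprotein Ib, was not tested, with 0.156, 0.847 and 0.126 CPM in the knockout and no wild-type count. The fibrinogen chains FGA, FGB and FGG, singled out after their values were seen, stayed under 1 CPM in all 6 libraries.

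The machinery that switches integrins on rose in 10 of 16 tested members and fell in 0 (median log2 fold change 0.46), beside 18.3% of all tested genes higher. Of the 10, FERMT2 was tested only because of its knockout libraries. The count of rises was 6, 6 and 5 without wild-type replicate 1, 2 or 3. FERMT2, a kindlin, had 10.9, 1.56 and 0.839 CPM in the knockout and 0.113, 0.308 and 0.173 CPM in wild type (adjusted p = 0.0233), but missed the threshold with limma-voom (0.110) and without any 1 wild-type library (0.0728 to 0.0959). RASGRP2, the exchange factor that activates Rap1 in platelets, had 18.6, 8.96 and 6.34 CPM in the knockout and 3.003, 2.26 and 2.64 CPM in wild type (adjusted p = 0.0101, lost without wild-type replicate 2 or 3 at 0.0542 and 0.0512). ZYX, an adaptor of focal adhesions, had 286.3, 222.2 and 225.6 CPM in the knockout and 107.4, 107.9 and 101.9 CPM in wild type (adjusted p = 0.00122).

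Signalling genes downstream of GPVI and the integrins were higher in 7 of 19 tested members and lower in 2 (median -0.01, log2), beside 18.3% higher and 15.4% lower over all tested genes. The adaptor FYB had 27.1, 28.2 and 35.4 CPM in the knockout and 5.82, 6.87 and 7.36 CPM in wild type (adjusted p = 0.000593). PLCG2, a phospholipase of this pathway, and the adaptor LCP2 were also higher (adjusted p = 0.0204 and 0.0234), but both missed the threshold without any 1 wild-type library (0.0533 to 0.0880 and 0.0832 to 0.0894). PLCG2 also missed it with the replicate block (0.0551), and LCP2 with limma-voom (0.0814) and without knockout replicate 2 (0.0503). Of the kinases near the start of the GPVI signal, LYN was lower, with 111.9, 120.9 and 118.5 CPM in the knockout and 144.6, 157.9 and 159.6 CPM in wild type (adjusted p = 0.00697), and so was SYK, with 29.5, 40.8 and 28.0 CPM in the knockout and 45.4, 49.5 and 42.7 CPM in wild type (0.0490). FYN, another such kinase, singled out after its values were seen, was higher, with 72.8, 101.5 and 58.3 CPM in the knockout and 22.4, 21.97 and 22.5 CPM in wild type (0.00199). SYK missed the threshold under upper quartile factors (0.0860), under library totals alone (0.104), without any 1 wild-type library (0.0981 to 0.153) and without knockout replicate 1 or 3 (0.0872 and 0.0900).

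In a list of platelet granule genes, not all of which encode granule contents, 11 of 12 tested members rose and 0 fell (median 3.51, log2). GNG11 and the GTPase gene RAB27B were among the 11. Over all tested genes 18.3% were higher and 15.4% lower. Of the 12, 3 passed the filter only through the knockout, MMRN1 and GNG11 among them. The list had 21 genes with a row. THBS1 and MMRN1, described as ligands, are also granule proteins. GNG11, a G protein subunit that is not itself a granule protein, stood at 28.1, 34.0 and 16.2 CPM in the knockout and 0.113, 0.103 and 0.130 CPM in wild type (adjusted p = 0.000254). The chemokine genes PPBP and PF4 did not pass the expression filter and were singled out after their values were seen. PPBP had 15.0, 3.88 and 0.0839 CPM, and PF4 0.117, 1.61 and 0 CPM in knockout replicates 1 to 3, with no count of either in wild type. F13A1, F5 and PF4V1 of the same list, chosen in the same way, had no count in any library of either genotype.

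Transcription factors of the megakaryocyte lineage passed the threshold about as often as all genes, 33.3% of 18 tested members against 33.7%. In this list 5 rose, FLI1 and ETS1 among them having passed the filter only through the knockout libraries, and 1 fell, and the median of log2 fold changes was 0.12 (0.12 also with FLI1, which had no wild-type count, at its lower bound). The number that rose was 3, 1 and 2 without wild-type replicate 1, 2 or 3, and 3 without knockout replicate 2 or with limma-voom. FLI1, an ETS factor, had 11.9, 5.44 and 0.504 CPM in knockout replicates 1 to 3 and no wild-type count (edgeR quasi-likelihood adjusted p = 0.0212). That call was lost with limma-voom (0.0526) and without any 1 wild-type library (0.0560 to 0.0597). FLI1 had the same order of knockout libraries as ITGA2B, and so had other factors of the list. RUNX1 was among these, at 131.7, 105.7 and 51.8 CPM in the knockout, and did not pass the threshold (adjusted p = 0.313). A relation of any of these factors to ITGA2B was not tested. The ETS factor ETS1 was even, at 33.1, 30.7 and 31.7 CPM in the knockout and 0.0751, 0 and 0.0865 CPM in wild type (adjusted p = 0.000113). MEIS1, a homeobox factor, had 14.7, 15.4 and 7.14 CPM in the knockout and 5.37, 5.95 and 5.50 CPM in wild type (0.0257), and its call was lost with limma-voom (0.0530), without any 1 wild-type library (0.0848 to 0.0987) and without knockout replicate 2 (0.0614). KLF1, an erythroid activator, fell to 104.2, 142.4 and 112.0 CPM in the knockout, against 180.8, 171.4 and 170.0 CPM in wild type (0.0152, lost without any 1 wild-type library at 0.0560 to 0.0654).

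**Figure D5:**
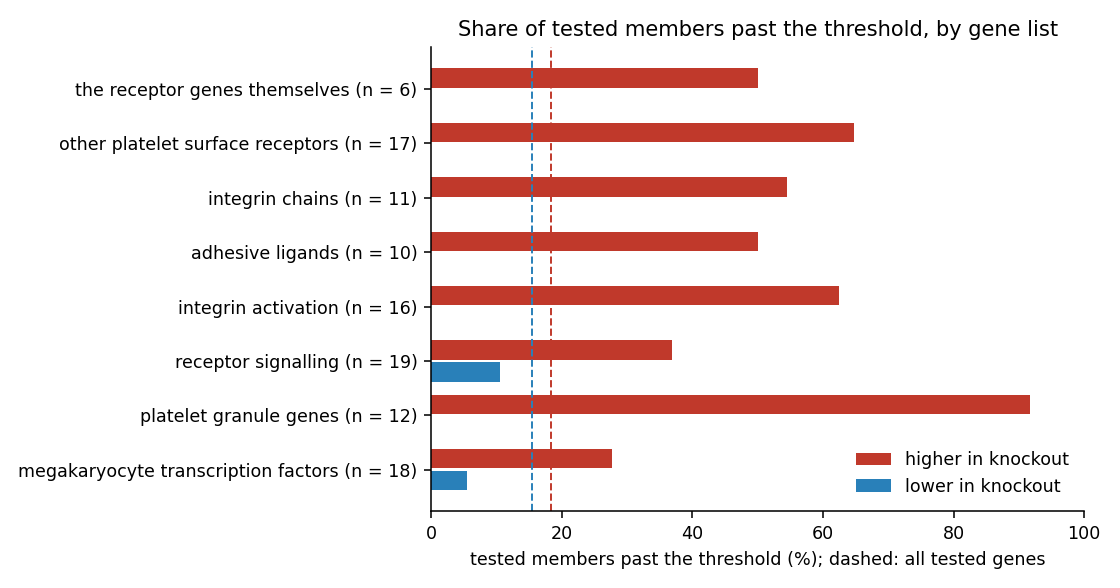
Share of tested members past the threshold (adjusted p under 0.05), in percent, higher (red) or lower (blue) in the knockout, for the 6 tested receptor genes and 7 other gene lists, with the number tested. Dashed lines give the shares over all tested genes, 18.3% higher and 15.4% lower.

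Of 14 erythroid markers, 4 were higher (28.6%) and 3 lower, beside 18.3% and 15.4% of all tested genes, and their median log2 fold change was 0.03. SLC4A1, the red cell anion exchanger, had 26.7, 55.3 and 65.8 CPM in the knockout and 5.56, 4.07 and 4.15 CPM in wild type (edgeR quasi-likelihood adjusted p = 0.00168). ALAS2, which starts heme synthesis in red cells, was higher too (0.00470), as was the embryonic globin gene HBE1 (0.0242), while AHSP, a globin chaperone, and the transferrin receptor gene TFRC were lower (0.0172 and 0.0488). Calls of HBE1, AHSP and TFRC were lost without any 1 wild-type library (0.0842 to 0.0937, 0.0590 to 0.0684 and 0.115 to 0.134). HBE1 also missed the threshold with the replicate block (0.0547) and without knockout replicate 2 or 3 (0.0574 and 0.0542), and TFRC did so under upper quartile factors (0.0784), under library totals alone (0.0840) and without knockout replicate 2 (0.0907). The summed erythroid level was 17739, 32763 and 25375 CPM in knockout replicates 1 to 3, where ITGA2B had 71.7, 50.8 and 18.8 CPM. Replicate 1 thus had the most ITGA2B and the lowest sum, but replicate 3, with the least ITGA2B, did not have the highest. Globin genes weighed most in the sum, HBG1 alone having 6346, 9015 and 5914 CPM in these libraries.

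CD36, PEAR1 and the integrins are also made by other cells, so markers of those were read beside them. Of 10 monocyte and macrophage markers, 7 were under 1 CPM in every library, CD14, CSF1R and MRC1 among them, and the summed level was 85.0, 84.3 and 107.1 CPM in the knockout and 51.5, 50.3 and 51.9 CPM in wild type. Most of it was the lysosomal gene CD68 and LYZ, and CD68 was higher in the knockout (edgeR quasi-likelihood adjusted p = 0.0448), a call lost with limma-voom (0.0823), with the replicate block (0.0595), without any 1 wild-type library (0.127 to 0.135) and without knockout replicate 1 or 3 (0.0831 and 0.107). Of 9 endothelial markers, 5 were under 1 CPM in every library, EMCN was at 0 throughout and CDH5 was at 0 in all but knockout replicate 1. TIE1, 1 of the 2 tested, was higher in the knockout, at 0.977, 1.29 and 0.588 CPM against 3 counts in all wild-type libraries together (edgeR quasi-likelihood adjusted p = 0.00567). It was tested only because of its knockout libraries. KDR had 4.03, 0.0892 and 0.126 CPM in the knockout and at most 0.0751 CPM in wild type, and ENG 3.20, 1.11 and 0.252 CPM in the knockout and 0.225, 0.137 and 0.130 CPM in wild type, neither of them tested. The 9 endothelial markers' summed level was 11.3, 5.35 and 3.74 CPM in the knockout and 2.10, 2.26 and 1.99 CPM in wild type, the order of the knockout libraries being that of ITGA2B. Adipocyte markers summed to at most 0.234 CPM in the knockout and 0.130 CPM in wild type, with none tested. T cell and B cell markers summed to 5.55, 11.02 and 14.7 CPM in the knockout and 4.73, 4.58 and 4.67 CPM in wild type, with 2 tested and neither past the threshold. The part of these cell types in the receptor levels was not tested.

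Genes beside the receptor genes did not share a direction. Before ITGA2B on chromosome 17, FAM171A2 and GRN, the progranulin gene, rose with log2 fold changes of 1.24 and 1.11 (edgeR quasi-likelihood adjusted p = 0.0431 and 0.000953), and after it FZD2 gave 0.18 (0.806) and CCDC43 fell by 0.36 on the log2 scale (0.0142). Both rises were smaller than the 3.97 of ITGA2B. Beside ITGB3, the myosin light chain gene MYL4 fell by 1.02 (0.0408), and CDC27, MRPL45P2 and NPEPPS gave -0.37, 0.11 and -0.18 (0.0570, 0.730 and 0.123). None of the tested genes that flank GP6 without overlapping it passed the threshold (NLRP2, NCR1, AL833150 and EPS8L1, adjusted p 0.0874 to 0.975).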

How the data were processed

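RNA was sequenced from 6 K562 libraries, 3 ARID4B knockout and 3 wild type, with a strand-preserving paired-end protocol, per the labels' protocols. The authors deposited estimated counts per gene and library and did not normalize them. Named in the submitters' processing notes are STAR 2.4, RSEM 1.2.14, hg19 and GRCh37 (role and order not stated). Use of the strand in counting is not stated in any source used here. The authors deposited log2 fold changes and p-values, raw and adjusted, for their own comparison; their test is not stated. Deposited starts were raised by 1, because 2960 rows matched the RefSeq gene length with starts counted from 0, and 265 with starts counted from 1. All 27 symbols stored as dates were restored from the description in their row.

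Estimated counts were rounded and tested with edgeR 4.0.16 (R 4.3.3), a quasi-likelihood F test with TMM scaling and a filter of minimum count 10, and p-values were adjusted by the Benjamini-Hochberg method over 13696 genes at a threshold of 0.05. CPM are counts scaled to a common TMM-adjusted library total. A receptor gene had to exceed 0.415 CPM in at least 3 libraries to be tested. Levels per kilobase use the longest matched RefSeq transcript in GENCODE v29. Bounds allow for counting error in wild type only and take the knockout counts as they stand. Other settings were library totals alone, upper quartile factors, DESeq2 1.42.0, limma-voom (limma 3.58.1) with 1 spread or a spread per genotype, no filter, a replicate block and each library left out. The procedure was tested on simulated data. The members and lists were chosen with earlier results of these data known. From each of 12 lists, up to 3 genes each way past the threshold with at least 1 CPM were named, with ITGAV, ITGB1, FCER1G and VWF always, the 5 genes most like ITGA2B and up to 2 tested neighbours on each side. Only the neighbours of ITGA2B, ITGB3 and GP6 are described; the others are not reported here.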

Additional observations from a re-analysis of the deposited data

How the results depend on the processing

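ITGA2B, ITGB3 and GP6 kept their direction and their call under all alternatives run: 7 other scalings, tools, filters or blocks and 6 fits with 1 library left out. CD36 reversed to 0.07 and 0.11 without knockout replicate 1 or 3 and passed the threshold downward without knockout replicate 2, so its log2 fold change ran from -2.36 to 0.11. PEAR1 ran from 0.19 to 0.99 and passed only without knockout replicate 1. The receptor genes counted as higher numbered 3 to 4 and as lower 0 to 1 with 1 library left out. Over all tested genes 1156 to 2921 were then higher and 941 to 2548 lower, against 2512 and 2107 with all libraries. With library totals alone 1283 were lower and with upper quartile factors 1451, and the median of all genes moved to 0.14 and 0.11 on the log2 scale. Over the 7 gene lists other than markers, chosen with earlier results known, 53 of 101 tested members were higher and 3 lower. All tested genes gave 18.3% higher and 15.4% lower. With DESeq2 6 of these list members were lower. With 1 library left out 35 to 61 were higher and 1 to 8 lower, of 103 to 113 tested. Among 35 other named genes past the threshold, 10 missed it in at least 1 setting with all libraries, 15 without at least 1 wild-type library and 8 without at least 1 knockout library, and 0 reversed. FYN, TIE1 and the neighbours FAM171A2, GRN, CCDC43 and MYL4 were not in that count. Their calls are given for the main fit only. Except where a value shows it, the cause was not tested.

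Replicate numbers did not pair the libraries, since the deviations of same-numbered libraries from their genotype means correlated at 0.008, 0.002 and 0.015. With the replicate block, 1872 genes were higher and 1577 lower, and the receptor genes gave the same 3 rises (ITGA2B 3.80, adjusted p = 0.00944) and 0 falls. The library totals limit GP9, GP5 and GP1BA most, whose levels rest on at most 21 counts in a library.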
